A study of Mus musculus with 12 samples.

Results

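Fibroblast matrix and smooth muscle genes were followed in R1 mouse embryonic stem cells (ESCs) with and without knockdown of Smarcd1, before and after retinoic acid. The 10 genes are Col1a1, Col1a2, Col3a1, Mmp2, Acta2, Tagln, Postn, Dcn, Lum and Thy1, out of 19938 genes with a probe set of their own, and each had 1 probe set. Their RNA was read on 12 Affymetrix arrays, 1 per sample, and is given as the deposited log2 values. Cells kept for 4 days without leukemia inhibitory factor (LIF) and with 1 µM retinoic acid (RA) gave 4 arrays of the Smarcd1 knockdown line KD1 and 2 of scrambled control cells. Undifferentiated ESCs, grown with LIF, gave 2 arrays of knockdown line KD2, 2 of KD1 and 2 of scrambled control cells. Smarcd1 encodes BAF60a, which belongs to chromatin remodelling complexes of the SWI/SNF family. All cells derive from R1, a line of male origin. The growth protocol is the same for all samples: culture on mouse embryonic fibroblasts (MEFs) treated with mitomycin, which stops their division. The labels do not say whether these feeder cells were removed before RNA was taken. The protocols speak of clones and infected cells, so each line may be a single clone. The arrays of a group are called biological replicates without a word on how the cultures were kept apart, so p-values measure array-to-array spread alone, part of which may be technical.

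Fibroblasts and smooth muscle cells share much of their matrix programme. Type I collagen is built from the chains of Col1a1 and Col1a2, type III collagen from Col3a1, and both form the fibrils of loose connective tissue. Decorin (Dcn) and lumican (Lum) are small leucine-rich proteoglycans that bind those fibrils, periostin (Postn) is a matricellular protein, and Mmp2 encodes gelatinase A, which cuts basement membrane and denatured collagen. Acta2 (smooth muscle actin) and Tagln (transgelin, SM22) belong to the contractile programme of smooth muscle and of activated fibroblasts, and are driven by serum response factor (SRF) with its myocardin family cofactors. Thy1 is a cell surface glycoprotein of fibroblasts, T cells and neurons. MEFs used as feeders are known to express most of these genes, so an ESC culture on feeders can carry their RNA.

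The mean of 12 pluripotency genes was 6.17 to 7.06 on RA arrays and 9.86 to 10.66 on ESC arrays, and 9 retinoic acid response genes averaged 7.66 to 9.04 on RA arrays and 4.54 to 5.09 on ESC arrays. Smarcd1 read 6.48 ± 0.10 (SD, n = 4) in RA KD1 cells and 8.74 ± 0.15 (SD, n = 2) in RA scrambled cells. In ESCs it read 7.77 ± 0.02 in KD1 and 8.67 ± 0.00 in scrambled cells (SD, n = 2 each). The array labelled KD2 replicate 1 read 8.56, which goes against its label, and KD2 replicate 2 read 7.16. On Xist, the RNA of the inactive X chromosome, the array labelled KD2 replicate 1 read 6.10 and the other 11 arrays 3.21 to 4.63. The KD2 arrays correlated at 0.941 with each other, against 0.989 to 0.993 for arrays of the same group elsewhere, and the weight that limma estimated was 0.137 for each of them, against 1.165 or more for the other arrays. Tests below come from a limma model of all 12 arrays. Log2 changes are given ± SE with p adjusted by Benjamini-Hochberg over the 12988 genes tested, and a change passed at an adjusted p under 0.05. Smarcd1 differed from scrambled cells by -2.26 ± 0.28 in RA KD1 cells (limma adjusted p = 0.000152). Its ESC differences of -0.91 ± 0.33 in KD1 (limma adjusted p = 0.23) and -0.81 ± 0.33 in KD2 (limma adjusted p = 0.152) did not pass. Testing was limited to genes over the 40th percentile of their array (4.46 to 4.63) on at least 2 arrays, as were 9 of the 10. Postn was over that level on 8 arrays, Lum on 0 and the other members on all 12.

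The contractile pair rose with retinoic acid in both kinds of cell. Acta2 read 11.81, 11.52, 11.09 and 11.48 on RA KD1 replicates 1 to 4, and 12.07 and 12.30 on the RA scrambled arrays. In ESCs Acta2 read 7.33 and 8.57 on the KD2 arrays, 8.58 and 7.58 on the KD1 arrays, and 9.38 and 9.84 on the scrambled arrays. All RA arrays lay above all ESC arrays, and both scrambled arrays lay above the arrays labelled knockdown of the same stage. These include the array labelled KD2 replicate 1, whose Smarcd1 value goes against its label. The share of all genes that separate in this way was not counted, here or for the separations of other members given below. Differentiation raised Acta2 by 3.40 ± 0.35 in KD1 cells (limma adjusted p = 1.08e-05, 10.5-fold) and by 2.58 ± 0.40 in scrambled cells (limma adjusted p = 0.000395, 5.98-fold). After RA the KD1 difference from scrambled cells was -0.71 ± 0.35 (limma adjusted p = 0.179), which did not pass, although all 4 KD1 arrays were below both scrambled arrays. With only the 6 RA arrays in the fit that adjusted p was 0.0152.

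Tagln, an actin-binding protein of smooth muscle, read 11.04, 10.81, 10.52 and 10.73 in RA KD1 cells and 10.86 and 10.89 in RA scrambled cells. Its ESC values were 6.85 and 7.16 in KD2, 7.08 and 6.24 in KD1, and 7.92 and 7.86 in scrambled cells. The RA groups overlapped, while in ESCs both scrambled arrays stood above all 4 arrays labelled knockdown, the doubtful KD2 replicate 1 among them. Tagln rose by 4.12 ± 0.22 in KD1 cells (limma adjusted p = 1.04e-07, 17.4-fold) and by 2.98 ± 0.25 in scrambled cells (limma adjusted p = 5.84e-06, 7.91-fold), starting lower in KD1. The difference between these rises was 1.13 ± 0.33 (limma adjusted p = 0.0609) and passed once the 2 KD2 arrays were left out (adjusted p = 0.0291). After RA the KD1 difference from scrambled cells was -0.10 ± 0.22 (limma adjusted p = 0.822).

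Promoters of the genes are shown to set these responses beside the sequence at their starts. SRF binds the CArG box, and Acta2 is known to be driven through CArG boxes near its start that depart from the consensus. RefSeq promoter windows of build GRCm38.p6, 250 bases before to 50 after a start, were found for Acta2, Col1a2, Col3a1 and Postn, 4 of the 10 genes. The first 3 are printed 5′ to 3′, with windows that differ from the CArG consensus by exactly 1 base in capitals. Acta2 lies at chr19:34255324-34255623 on the minus strand, Col1a2 at chr6:4505368-4505667 on the plus strand and Col3a1 at chr1:45311288-45311587 on the plus strand.
Acta2: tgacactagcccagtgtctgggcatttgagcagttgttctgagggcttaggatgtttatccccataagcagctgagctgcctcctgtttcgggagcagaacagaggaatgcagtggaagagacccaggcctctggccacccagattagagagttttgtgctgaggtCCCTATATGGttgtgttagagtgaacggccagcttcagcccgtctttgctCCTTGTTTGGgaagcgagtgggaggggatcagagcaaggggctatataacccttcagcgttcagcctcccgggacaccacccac
Col1a2: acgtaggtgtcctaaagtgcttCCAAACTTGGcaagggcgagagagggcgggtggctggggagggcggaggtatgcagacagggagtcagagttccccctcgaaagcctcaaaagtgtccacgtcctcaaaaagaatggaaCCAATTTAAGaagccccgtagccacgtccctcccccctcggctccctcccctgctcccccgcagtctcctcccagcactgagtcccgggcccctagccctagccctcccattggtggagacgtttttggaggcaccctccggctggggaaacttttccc
Col3a1: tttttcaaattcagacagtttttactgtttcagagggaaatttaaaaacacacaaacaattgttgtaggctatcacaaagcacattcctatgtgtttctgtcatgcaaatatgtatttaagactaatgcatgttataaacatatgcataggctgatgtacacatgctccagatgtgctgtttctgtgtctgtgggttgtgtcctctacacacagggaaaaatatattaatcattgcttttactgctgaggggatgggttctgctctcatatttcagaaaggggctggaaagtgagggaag

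No window of the 4 genes held an exact CArG box, which 1.63% of all 32851 promoter windows hold. Acta2 held CCCTATATGG and CCTTGTTTGG, starting 84 and 34 bases before the start, and Col1a2 held CCAAACTTGG and CCAATTTAAG, starting 228 and 109 bases before it. At least 2 such windows, counted with at most 1 mismatch and on both strands (the consensus reads the same on either), are found in 3.7% of all promoter windows, and at least 1 in 21.1%. Acta2 rose on differentiation in both kinds of cell and Col1a2, with as many windows, did not rise in either. The motif CAGAC, bound by Smad proteins, was found on either strand in Acta2, Col1a2, Col3a1 and 1 of the 2 Postn windows, and occurs in 49.6% of all windows. Matches are descriptions of the sequence, and binding at them was not tested here.

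**Figure D1:**
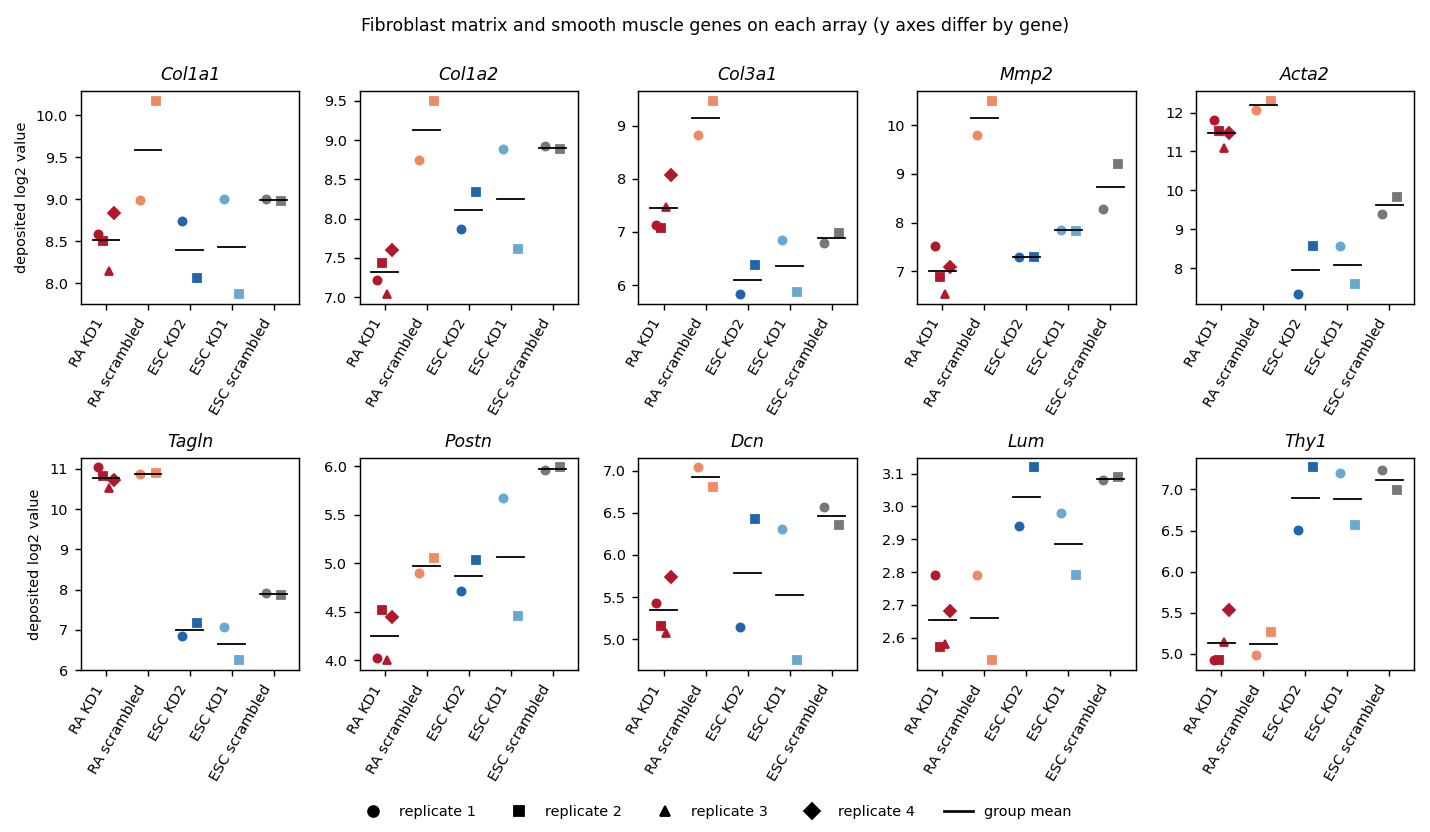
Deposited log2 value (y axis, scaled per gene) of each of the 10 genes on each array, by group, with marker shapes for replicate numbers and a black line at the group mean. Acta2 and Tagln lie above 10 on every RA array and below 10 on every ESC array; Thy1 is lower on every RA array than on every ESC array; Lum stays between 2.53 and 3.12.

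Type III collagen rose with retinoic acid while the type I chains did not. Col3a1 read 7.14, 7.07, 7.48 and 8.08 in RA KD1 cells and 8.83 and 9.47 in RA scrambled cells. In ESCs it read 5.83 and 6.37 in KD2, 6.84 and 5.87 in KD1, and 6.80 and 6.99 in scrambled cells. All RA arrays exceeded all ESC arrays, and both RA scrambled arrays exceeded all RA KD1 arrays. How many of all genes do so was not counted. Col3a1 rose by 1.09 ± 0.33 in KD1 cells (limma adjusted p = 0.0159) and by 2.25 ± 0.38 in scrambled cells (limma adjusted p = 0.000678), and was lower in RA KD1 than in RA scrambled cells by -1.71 ± 0.33 (limma adjusted p = 0.00281). The rise in KD1 cells was 0.60 without ESC KD1 replicate 2 (adjusted p = 0.247) and 0.75 with RA KD1 replicates 1 and 2 alone (adjusted p = 0.103). The RA difference was -1.39 without RA scrambled replicate 2 (adjusted p = 0.0587).

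Col1a1 read 8.59, 8.50, 8.14 and 8.83 in RA KD1 cells and 8.99 and 10.17 in RA scrambled cells. Its ESC values were 8.74 and 8.06 in KD2, 9.0 and 7.87 in KD1, and 9.0 and 8.98 in scrambled cells. RA scrambled replicate 1 was level with the scrambled ESCs, and the scrambled change on differentiation of 0.59 ± 0.42 (limma adjusted p = 0.295) was 0.00 without RA scrambled replicate 2. In KD1 cells differentiation changed Col1a1 by 0.08 ± 0.36 (limma adjusted p = 0.861). In RA KD1 against RA scrambled cells Col1a1 changed by -1.07 ± 0.36 (limma adjusted p = 0.0537), with both scrambled arrays above all 4 KD1 arrays, and the adjusted p was 0.0318 once the 2 KD2 arrays were left out.

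Col1a2 read 7.22, 7.44, 7.04 and 7.60 in RA KD1 cells, against 8.75 and 9.50 in RA scrambled cells. In ESCs it read 7.87 and 8.34 in KD2, 8.89 and 7.61 in KD1, and 8.92 and 8.89 in scrambled cells. The RA KD1 arrays were the lowest of all 12. Col1a2 was lower in RA KD1 than in RA scrambled cells by -1.80 ± 0.32 (limma adjusted p = 0.00175), 3.49-fold. On differentiation it fell by -0.92 ± 0.32 in KD1 cells (limma adjusted p = 0.0306) and changed by 0.22 ± 0.37 in scrambled cells (limma adjusted p = 0.679). The fall in KD1 cells was -0.29 without ESC KD1 replicate 1 (adjusted p = 0.494), and missed the threshold without RA KD1 replicate 1 (adjusted p = 0.0615) or 3 (adjusted p = 0.0698). The type I chains did not keep step: the log2 value of Col1a1 minus that of Col1a2 was 1.37, 1.06, 1.11 and 1.22 in RA KD1 cells and 0.24 and 0.67 in RA scrambled cells. In ESCs this difference was 0.87 and -0.28 in KD2, 0.11 and 0.25 in KD1, and 0.08 and 0.10 in scrambled cells. It was higher on all RA KD1 arrays than on the other 8 arrays, and this ratio was not tested.

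Mmp2, the gelatinase gene, moved in opposite directions in the 2 kinds of cell. It read 7.51, 6.89, 6.53 and 7.08 in RA KD1 cells and 9.80 and 10.50 in RA scrambled cells. In ESCs Mmp2 read 7.30 and 7.30 in KD2, 7.85 and 7.83 in KD1, and 8.27 and 9.20 in scrambled cells. Scrambled arrays were above the arrays labelled knockdown at both stages with no overlap, the doubtful KD2 replicate 1 being among the latter in ESCs. The share of all genes with such a separation was not counted. Differentiation lowered Mmp2 by -0.84 ± 0.30 in KD1 cells (limma adjusted p = 0.0356) and raised it by 1.42 ± 0.35 in scrambled cells (limma adjusted p = 0.00694). These changes differed by -2.25 ± 0.46 (limma adjusted p = 0.0115), and RA KD1 cells were below RA scrambled cells by -3.15 ± 0.30 (limma adjusted p = 2.14e-05), 8.86-fold. The call for the difference between the changes was lost without either ESC KD1 array (adjusted p = 0.0527 and 0.0502 without replicates 1 and 2), without ESC scrambled replicate 1 (-1.78, adjusted p = 0.0504) and without RA scrambled replicate 2 (-1.90, adjusted p = 0.0667). The fall in KD1 cells was lost without either ESC KD1 array (adjusted p = 0.14 and 0.138 without replicates 1 and 2) and without RA KD1 replicate 2, 3 or 4 (adjusted p = 0.0549 to 0.0828). The rise in scrambled cells was lost without ESC scrambled replicate 1 (0.95, adjusted p = 0.0837) or RA scrambled replicate 2 (1.06, adjusted p = 0.0819). The RA difference from scrambled cells passed under every alternative run.

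Decorin was the one proteoglycan among the members to pass the filter. Dcn read 5.43, 5.16, 5.07 and 5.74 in RA KD1 cells and 7.04 and 6.81 in RA scrambled cells. In ESCs it read 5.15 and 6.43 in KD2, 6.31 and 4.75 in KD1, and 6.57 and 6.36 in scrambled cells. After RA the groups did not overlap, a separation whose share among all genes was not counted. Dcn was lower in RA KD1 than in RA scrambled cells by -1.58 ± 0.41 (limma adjusted p = 0.0153). This call was lost without RA scrambled replicate 1 (-1.46, adjusted p = 0.131) or replicate 2 (-1.69, adjusted p = 0.079). Differentiation changed Dcn by -0.18 ± 0.41 in KD1 cells (limma adjusted p = 0.733) and by 0.46 ± 0.47 in scrambled cells (limma adjusted p = 0.483).

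Lum, which neighbours Dcn on chromosome 10, read 2.57 to 2.79 in RA KD1 cells and 2.53 and 2.79 in RA scrambled cells. Its ESC values were 2.94 and 3.12 in KD2, 2.98 and 2.79 in KD1, and 3.08 and 3.09 in scrambled cells. Lum was below the filter on all arrays and was not tested. Kera and Epyc, which encode related proteoglycans further along the same stretch, read 2.78 to 3.11 and 2.94 to 3.56 over all arrays. Whether these probe sets carry signal above background was not tested.

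Periostin was highest in scrambled ESCs. Postn read 4.03, 4.52, 4.00 and 4.45 in RA KD1 cells and 4.90 and 5.05 in RA scrambled cells. In ESCs it read 4.71 and 5.03 in KD2, 5.67 and 4.46 in KD1, and 5.96 and 5.99 in scrambled cells. Postn passed the filter through arrays of the other groups. On RA KD1 replicates 1, 3 and 4 Postn lay below the filter level (4.46 to 4.63), and on replicate 2 within that range. It fell on differentiation by -0.81 ± 0.28 in KD1 cells (limma adjusted p = 0.0303) and by -1.0 ± 0.32 in scrambled cells (limma adjusted p = 0.0292). Both calls depended on single arrays. Without ESC KD1 replicate 1 the KD1 change was -0.21 (adjusted p = 0.538), without RA KD1 replicate 1 or 3 it missed the threshold (adjusted p = 0.0687 and 0.0694), and the scrambled change had adjusted p = 0.0865 to 0.131 when any 1 scrambled array was left out. RA KD1 differed from RA scrambled cells by -0.72 ± 0.28 (limma adjusted p = 0.0905).

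Thy1 fell with retinoic acid. It read 4.92, 4.93, 5.15 and 5.53 in RA KD1 cells and 4.99 and 5.26 in RA scrambled cells. In ESCs Thy1 read 6.51 and 7.27 in KD2, 7.20 and 6.57 in KD1, and 7.24 and 6.99 in scrambled cells. Every RA array was below every ESC array, a separation not counted over all genes, and within each stage the groups overlapped. The change was -1.75 ± 0.25 in KD1 cells (limma adjusted p = 0.000151) and -1.99 ± 0.29 in scrambled cells (limma adjusted p = 0.000284). RA KD1 and RA scrambled cells differed by 0.01 ± 0.25 (limma adjusted p = 0.99).

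**Figure D2:**
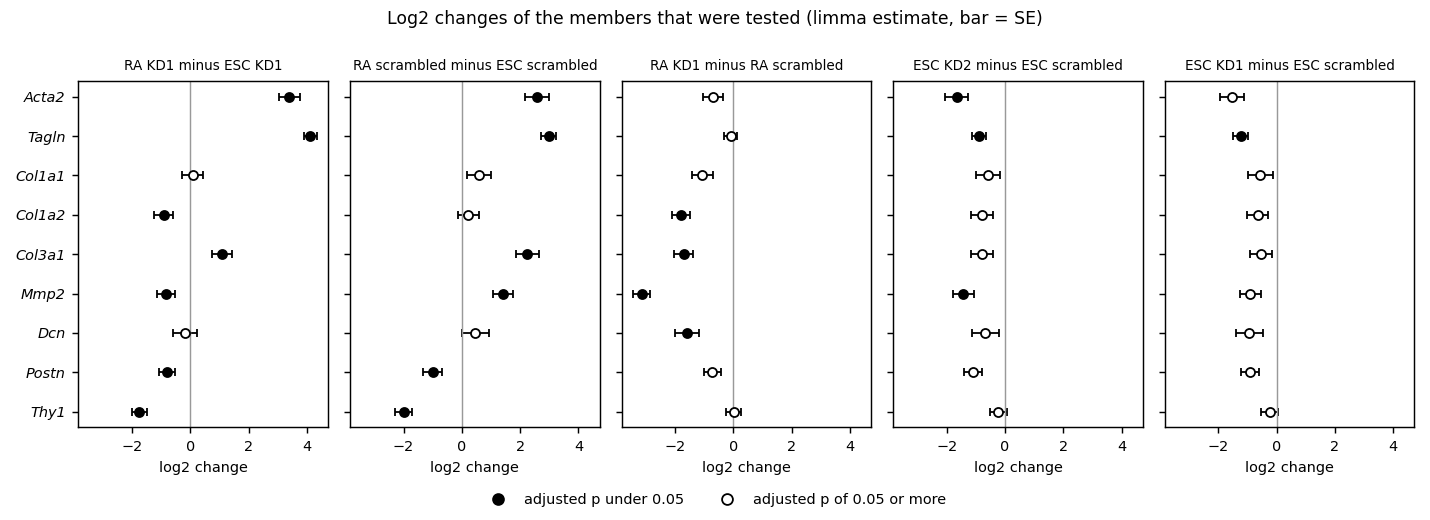
Log2 change (x axis) of the 9 tested members in 5 comparisons, with the limma estimate as a point and its SE as a bar; filled points had an adjusted p under 0.05. Acta2 and Tagln stand at 2.58 to 4.12 on differentiation, Mmp2 at -3.15 in RA KD1 against RA scrambled cells, and all 9 ESC estimates against scrambled cells are below 0 in both lines, which share the scrambled arrays.

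Set together, differentiation of KD1 cells raised 3 of the 9 tested members (Acta2, Tagln and Col3a1) and lowered 4 (Col1a2, Mmp2, Postn and Thy1), with a median of -0.18. In this comparison 50.8% of all tested genes were called, 29.4% higher and 21.4% lower, with a median of 0.06 over all tested genes. Differentiation of scrambled cells raised 4 of the 9 (Acta2, Tagln, Col3a1 and Mmp2) and lowered 2 (Postn and Thy1), with a median of 0.59, where 39.1% of all tested genes were called, 22.4% higher and 16.7% lower, with a median of 0.06. The members thus did not move as a block. With RA KD1 replicates 1 and 2 alone the KD1 count was 3, and without ESC KD1 replicate 1 or RA KD1 replicate 3 it was 4, in each case with Acta2, Tagln and Thy1 among the calls.

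Other contractile genes rose as Acta2 and Tagln did: 11 of 15 tested rose in KD1 cells and 0 fell, with a median of 1.02, and 12 of 15 rose in scrambled cells and 0 fell, with a median of 1.62. Examples in KD1 cells were Cald1, a regulator of actomyosin (3.50 ± 0.19), the calponin gene Cnn1 (3.29 ± 0.41), the tropomyosin gene Tpm1 (3.27 ± 0.15) and the myosin light chain gene Myl9 (3.12 ± 0.29), all with limma adjusted p of 5.13e-05 or less. In scrambled cells Myl9 (2.94 ± 0.34), Cnn1 (2.91 ± 0.48), Cald1 (2.60 ± 0.22) and Tpm1 (2.38 ± 0.18) led. The myocardin gene Myocd was below the filter, at 3.73 to 4.43 in RA KD1 cells, 3.94 and 4.09 in RA scrambled cells and 3.40 to 3.84 in ESCs. Its relatives Mrtfa and Mrtfb rose in KD1 cells (1.34 ± 0.18 and 0.83 ± 0.14) and in scrambled cells (0.90 ± 0.21 and 1.10 ± 0.16). Of the 13 tested SRF and transforming growth factor beta (TGF-beta) control genes, 9 rose and 1 fell in KD1 cells and 7 rose and 2 fell in scrambled cells.

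Other fibroblast and feeder genes were mixed. Of 30 tested, 13 rose and 6 fell in KD1 cells (median 0.29) and 11 rose and 9 fell in scrambled cells (median 0.21). The receptor gene Pdgfra (3.82 ± 0.24), the transcription factor genes Twist1 (2.38 ± 0.23) and Tcf21 (2.13 ± 0.28) and the fibril-associated collagen gene Col12a1 (2.13 ± 0.32) rose most in KD1 cells. In scrambled cells Twist1 (3.34 ± 0.27), Pdgfra (2.39 ± 0.28), Col12a1 (2.38 ± 0.37) and Snai2, a transcriptional repressor of mesenchymal cells (2.15 ± 0.27), rose most. The fibronectin gene Fn1 had the largest fall in KD1 cells, at -1.94 ± 0.22, and fell by -1.10 ± 0.25 in scrambled cells. Bgn, which encodes the decorin relative biglycan, had the largest fall in scrambled cells, at -1.96 ± 0.46, and fell by -1.31 ± 0.40 in KD1 cells. The falls were singled out after their values were seen. Pdgfra is known from primitive endoderm as well as from mesenchyme.

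After retinoic acid, 4 matrix genes of the set were lower in KD1 than in scrambled cells. Of the 9 tested members 4 were lower (Mmp2, Col1a2, Col3a1 and Dcn) and 0 higher, with a median of -1.07, where 22.7% of all tested genes were called, 11.5% lower and 11.2% higher, with a median of -0.02. The calls did not include Acta2, Tagln or Thy1. The count was 2 (Mmp2 and Col1a2) without RA scrambled replicate 2, and 7 with array weights or with only the 6 RA arrays. In bulk RNA, fewer cells of a type and less RNA per cell cannot be told apart.

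Among the other fibroblast and feeder genes 9 of 30 were lower and 3 higher in RA KD1 than in RA scrambled cells, with a median of -0.32. The cadherin gene Cdh11 (-2.33 ± 0.32), Snai2 (-1.72 ± 0.23) and Col12a1 (-1.51 ± 0.32) were lower, and Pdgfra was higher (2.47 ± 0.24). Of 15 contractile genes 4 were lower and 1 higher. The lower ones were Actg2 (-1.49 ± 0.27) and Myh11 (-1.45 ± 0.15), which encode actin and myosin of mature smooth muscle, the integrin gene Itga8 (-1.42 ± 0.22) and Lmod1 (-0.51 ± 0.14). The smoothelin gene Smtn was higher (0.54 ± 0.14). Of 8 matrix proteases and inhibitors Timp3, an inhibitor of matrix metalloproteinases (1.79 ± 0.21), and Reck, a membrane-anchored inhibitor (0.61 ± 0.15), were higher, and Mmp11 was lower (-1.10 ± 0.20). Tgfbi, a relative of Postn, was lower (-2.78 ± 0.33). Of the 13 SRF and TGF-beta control genes 4 were higher and 3 lower. Among the higher were Ccn2, a target of TGF-beta and YAP signalling (2.42 ± 0.19), and the receptor gene Tgfbr2 (1.46 ± 0.20). Among the lower were the ligand genes Tgfb2 (-1.07 ± 0.18) and Tgfb3 (-1.01 ± 0.20). In the limma fit each named change had an adjusted p under the threshold, the least firm of them Lmod1 at 0.0241.

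Markers of other cell types moved with this comparison. The mean of 10 parietal endoderm genes was 10.60 to 11.22 on RA KD1 arrays and 8.44 and 8.51 on RA scrambled arrays, and 9 of the 10 were higher. The mean of 6 mesothelium genes was 5.59 to 5.76 on RA KD1 arrays and 7.22 and 7.22 on RA scrambled arrays, with 4 of 6 lower, led by Lrrn4 (-3.44 ± 0.29) and Upk3b (-3.35 ± 0.13). The mean of the 30 other fibroblast and feeder genes was 6.30 to 6.67 on RA KD1 arrays and 6.67 and 7.08 on RA scrambled arrays. Fap, a surface protease of activated fibroblasts, was below the filter at 2.51 to 2.99 over all arrays. Of 9 retinoic acid response genes 7 were lower and 0 higher in RA KD1 cells (median -0.81). The mean of the 9 was 7.66 to 8.19 on RA KD1 arrays and 8.93 and 9.04 on RA scrambled arrays. Cyp26a1 and Rarb did not pass and were not lower. Cyp26a1 averaged 12.10 in RA KD1 and 10.43 in RA scrambled cells, and Rarb averaged 9.03 and 8.96. Neural genes were lower in 3 of 5 (median -1.26) and neural crest genes in 2 of 4 (median -0.77), with 0 higher in either list. Mesoderm genes were lower in 4 and higher in 2 of 7 (median -0.67). The part of any of these cell types, or of the differing response to retinoic acid, in the 4 lower genes was not tested.

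In ESCs, all 9 tested members had estimates below 0 in both knockdown lines against scrambled cells, and few passed. The lines share the scrambled arrays, so the signs of their estimates are not independent. The median over the 9 members was -0.9 in KD1 and -0.8 in KD2, against 0 and -0.02 over all tested genes. The share of all tested genes below 0 in both lines was not counted. In KD2 against scrambled cells 3 of 9 were lower and 0 higher, where 10% of all tested genes were called, 7.15% lower and 2.88% higher. They were Acta2 (-1.66 ± 0.40, limma adjusted p = 0.0232), Mmp2 (-1.43 ± 0.35, limma adjusted p = 0.0232) and Tagln (-0.89 ± 0.25, limma adjusted p = 0.0466). The other KD2 estimates ran from -1.10 for Postn (limma adjusted p = 0.0538) to -0.23 for Thy1. These calls rest on arrays that stand apart: limma called 0 members with only the 4 arrays compared (6 at an unadjusted p under 0.05) and 0 with array weights (1 at an unadjusted p under 0.05). Without the array labelled KD2 replicate 1, or without ESC scrambled replicate 1, it called 1, which was Mmp2, and without ESC scrambled replicate 2 it called 0 (4 at an unadjusted p under 0.05).

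In KD1 against scrambled ESCs 1 of 9 members passed, Tagln at -1.23 ± 0.25 (limma adjusted p = 0.0284), where 2.32% of all tested genes were called, 1.41% lower and 0.909% higher. Acta2 changed by -1.53 ± 0.40 (limma adjusted p = 0.0785), and passed at 0.013 once the 2 KD2 arrays were left out. The Tagln call was lost without ESC KD1 replicate 2 (-0.81, adjusted p = 0.22) and without ESC scrambled replicate 1 (adjusted p = 0.105) or 2 (adjusted p = 0.187). It also missed the threshold without 1 of the RA scrambled arrays or RA KD1 replicate 2 or 4 (adjusted p = 0.0526 to 0.0549). Of the other contractile genes 1 of 15, Tpm1, was lower in KD1 (-1.18 ± 0.18, limma adjusted p = 0.00728). In KD2 Tpm1 (-1.37 ± 0.18, limma adjusted p = 0.00099) and Cnn2 (-1.07 ± 0.21, limma adjusted p = 0.00842) were lower. Of the 30 other fibroblast and feeder genes limma called 0 in KD1 (9 at an unadjusted p under 0.05), with a median of -0.48, and 2 lower in KD2, Col12a1 (-1.36 ± 0.37) and Cd44 (-0.93 ± 0.24), with a median of -0.45. Between the knockdown lines, KD2 minus KD1 ran from -0.54 for Mmp2 to 0.34 for Tagln, and limma called 0 of 9 members (0 at an unadjusted p under 0.05), where 2.7% of all tested genes were called, 0.508% higher and 2.19% lower.

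The weak ESC calls go with a wide spread between the 2 KD1 arrays. On ESC KD1 replicate 2 all 10 members read lower than on replicate 1, and 8 of the 9 tested members were lower by over 0.5, against 2.96% of all tested genes (1.38% were higher by as much), although the arrays correlated at 0.991. The differences, replicate 2 minus replicate 1, were -1.56 for Dcn, -1.27 for Col1a2, -1.22 for Postn, -1.13 for Col1a1, -1.0 for Acta2, -0.97 for Col3a1, -0.83 for Tagln and -0.63 for Thy1. Counted from the largest decrease among 12988 genes, Dcn ranked 2, Col1a2 ranked 5, Postn ranked 8 and Col1a1 ranked 17. Mmp2 differed by -0.02 and ranked 7101. The mean of the 30 other fibroblast and feeder genes was 5.85 on KD1 replicate 2 and 6.43 on replicate 1, and 18 of the 30 were lower by over 0.5. By contrast 2 of 15 other contractile genes were, with a median of -0.06.

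Set against the scrambled ESCs, KD1 replicate 1 alone gave 0.00 for Col1a1, -0.02 for Col1a2, -0.06 for Col3a1, -0.16 for Dcn and -0.30 for Postn. KD1 replicate 2 alone gave -1.13, -1.29, -1.03, -1.72 and -1.52 for the same genes in that order, none of them past the threshold (adjusted p = 0.0614 to 0.534). For these 5 matrix genes the KD1 estimate in ESCs came mostly from 1 array. Acta2 and Tagln were lower on both, at -1.02 and -0.81 with replicate 1 alone and -2.03 and -1.65 with replicate 2 alone, and Mmp2 was at -0.88 and -0.91. Carry-over of feeder RNA in different amounts is one reading of such an array difference and was not tested, since no array of feeder cells alone is among these samples.

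**Figure D3:**
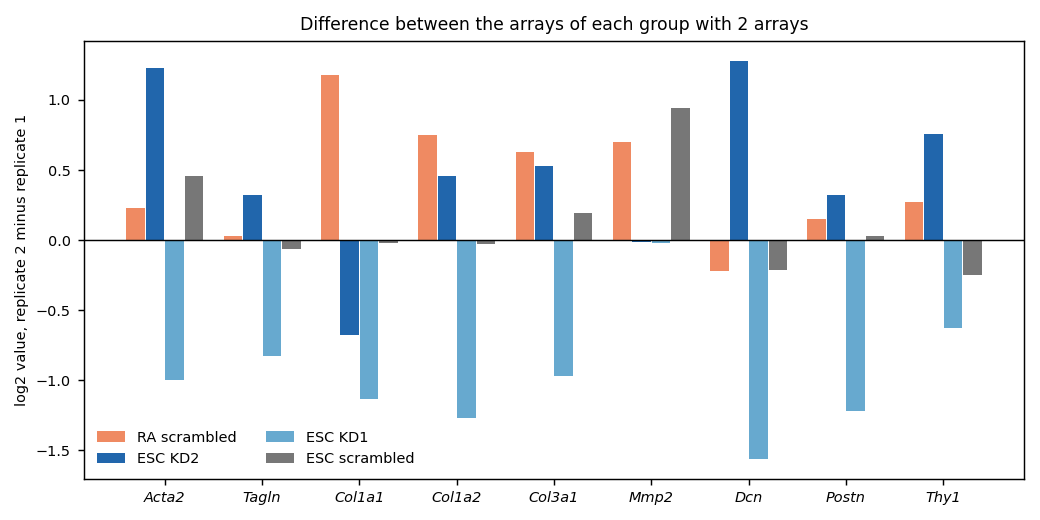
Difference in log2 value between replicate 2 and replicate 1 (y axis) for the 9 tested members in the 4 groups with 2 arrays, one bar per group. The ESC KD1 bars run from -0.63 to -1.56 except for Mmp2 at -0.02; the ESC scrambled bars lie between -0.25 and 0.94.

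In the other groups of 2 arrays the members differed in other ways. RA scrambled replicate 2 was above replicate 1 by 1.18 for Col1a1, 0.75 for Col1a2, 0.70 for Mmp2 and 0.63 for Col3a1, and 4 of 9 members were higher by over 0.5, against 2.31% of all tested genes. Acta2 and Tagln differed by 0.23 and 0.03 there. KD2 replicate 2 was higher than replicate 1 by over 0.5 for 4 of 9 members, against 31.9% of all tested genes, and lower for 1, Col1a1, against 15.3%. In scrambled ESCs Mmp2 was higher on replicate 2 by 0.94, the other 8 members differed by 0.46 or less, and 5.54% of all tested genes were higher and 3.36% lower by over 0.5.

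Over the 6 ESC arrays, the mean of the tested members and the mean of the 30 other fibroblast and feeder genes had a Pearson correlation of 0.99. It was 0.91 over the 6 RA arrays and 0.96 over all 12. Other lists were about as close: over RA arrays the members' mean had a correlation of 0.96 with mesothelium genes, 0.95 with retinoic acid response genes, 0.94 with neural genes, 0.90 with neural crest genes and -0.94 with parietal endoderm genes. Over ESC arrays it was 0.89 with mesothelium genes. With the 15 other contractile genes the correlation was 0.85 over ESC arrays and 0.89 over RA arrays, and 0.69 over all 12. These points share arrays and groups, and the values are descriptions. Between single members over the ESC arrays the correlation ran from 0.20 for Mmp2 and Thy1 to 0.98 for Col1a2 with Col3a1 and for Col1a2 with Postn. Over all 12 arrays it ran from -0.90 for Tagln and Thy1 to 0.97 for Acta2 and Tagln.

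**Figure D4:**
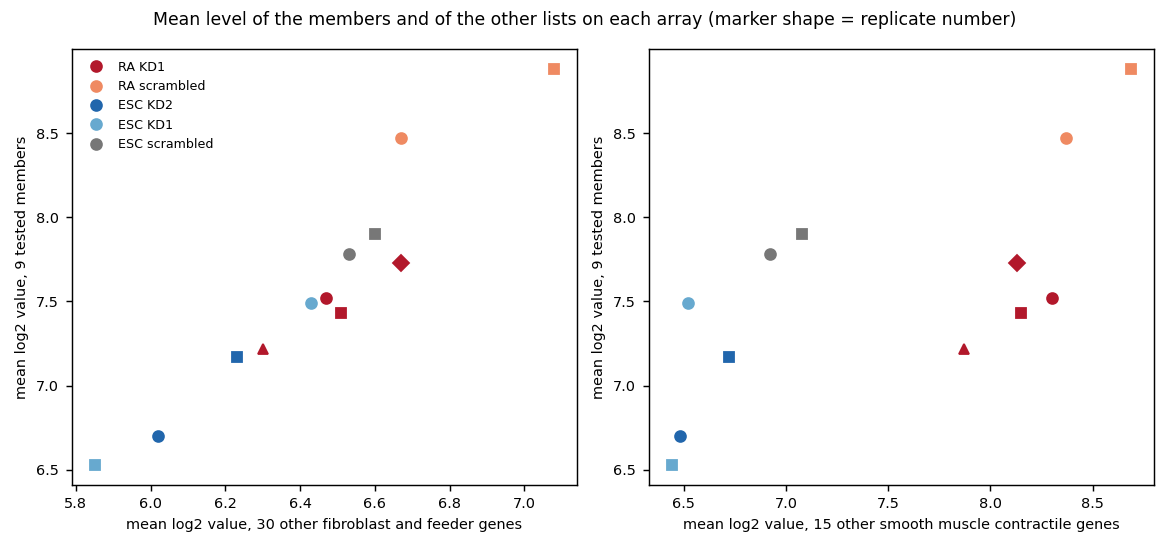
Mean log2 value of the 9 tested members (y axis) against the mean of the 30 other fibroblast and feeder genes (left x axis) and of the 15 other contractile genes (right x axis), one point per array, coloured by group with marker shape for the replicate number. On the left the arrays fall near one line from ESC KD1 replicate 2 (5.85, 6.53) to RA scrambled replicate 2 (7.08, 8.88); on the right RA and ESC arrays form separate sets.

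The genes most like the members over the 12 arrays were named by Pearson correlation with the mean of centred log2 values. Closest to Col1a1, Col1a2 and Col3a1 were Cdh11 (0.928), Tmem176b (0.927), Ccn4 (0.914), Ackr3 (0.898) and Wnk4 (0.894). Closest to Acta2 and Tagln were Ccnd2 (0.995), Slc25a24 (0.993), Wls (0.991), Tpm4 (0.99) and Camk2d (0.99). For all tested members they were Tll1 (0.945), Tmem176b (0.941), Cpe (0.94), Cdh11 (0.935) and Colec12 (0.934). The contractile pair had the nearer neighbours, and in these genes RA and ESC arrays form separate sets.

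Whether the effect of differentiation differed between KD1 and scrambled cells was tested as an interaction. Of 9 members 1 passed, Mmp2 at -2.25, where 7.88% of all tested genes were called, 3.61% lower and 4.27% higher. Next by adjusted p came Tagln at 1.13, Col1a2 at -1.15 ± 0.49 (limma adjusted p = 0.205) and Col3a1 at -1.16 ± 0.50 (limma adjusted p = 0.211). Of 8 matrix proteases and inhibitors Timp2, an inhibitor that also helps to activate the Mmp2 proenzyme (2.06 ± 0.45, limma adjusted p = 0.0166), and Timp3 (2.04 ± 0.33, limma adjusted p = 0.00311) had a greater change in KD1 cells. Timp2 rose by 3.01 ± 0.30 in KD1 cells and by 0.95 ± 0.34 in scrambled cells. Mmp11 had a lower one (-1.61 ± 0.31, limma adjusted p = 0.00893). Of the contractile genes Tpm1 (0.89 ± 0.23) and Smtn (0.80 ± 0.22) had a greater change in KD1 cells and Myh11 a lower one (-1.43 ± 0.23). The call for Mmp2 was the only one among the members with all arrays; with the 2 KD2 arrays left out Tagln passed as well.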

How the data were processed

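Deposited values were log2 probe set summaries of 12 arrays, and RMA is named as the tool per the submitters' processing notes; no source used here gives its version or settings. Array medians ran from 4.73 to 5.09, and no scaling was added. Of 35556 probe sets 21789 had 1 gene symbol in the platform's gene table, 1621 several and 12146 none listed. They gave 19938 genes, each with its highest-mean probe set. Entrez identifiers matched RefSeq for 21698 probe sets and changed 0 symbols. Genes above percentile 40 on at least 2 arrays were tested (12988). A group-means model was fitted with limma 3.58.1 in R 4.3.3 (7 residual degrees of freedom, prior 4.58), with 7 contrasts, two-sided. Groups follow the sample titles. Array number limits the precision. The members, lists and tests were chosen with earlier results of these data known. Up to 4 tested genes of a list with the largest absolute changes past the threshold were named by rule. Named after their values were seen were Fn1, Bgn, Lmod1, Tgfb3, Cyp26a1, Rarb, Myocd, Mrtfa, Mrtfb, Fap, Nanog, Sox2 and Pou5f1. In the interaction and ESC comparisons, genes given to make a small count plain were also named after their values were seen. Alternatives covered the filter, scaling, probe sets, array weights, a replicate block and left-out arrays. The fit was tested on simulated data for RA KD1 against RA scrambled arrays over 12988 genes. With 50 genes at each shift, it found 5 at a log2 of 0.5, 34 at 1, 48 at 2 and 50 at 4. Beside these calls it called 15 of 12788 unshifted genes. All simulated arrays of a gene had the same spread, and no group differences apart from the shifts. The simulation thus lacked the noisier KD2 arrays, and its figures may not carry over to the real fit. Tables and plots used Python 3.11.15, pandas 2.3.3, numpy 2.4.6 and matplotlib 3.10.9.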

Additional observations from a re-analysis of the deposited data

Results flagged for a closer look

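Mmp2 differed between KD1 and scrambled cells in its response to retinoic acid with all arrays fitted. It changed by -0.84 ± 0.30 in KD1 cells and by 1.42 ± 0.35 in scrambled cells, and the difference was -2.25 (limma interaction, adjusted p = 0.0115). This call was lost with the replicate block (limma adjusted p = 0.0691). It was also lost without ESC scrambled replicate 1, without either ESC KD1 array or without RA scrambled replicate 2. All 4 RA KD1 arrays (6.53 to 7.51) were below both ESC KD1 arrays (7.83 and 7.85), and both RA scrambled arrays (9.80 and 10.50) were above both ESC scrambled arrays (8.27 and 9.20). The share of all genes that separate so was not counted. No RA KD1 array stood apart from the other 3 for any of the 10 genes by Dixon's test, and groups of 2 arrays cannot be tested for this. The test looks for a lone array and cannot see a split of 2 against 2. On RA KD1 replicates 1 to 4 Nanog read 4.14, 4.71, 7.14 and 6.94, and Sox2 read 6.35, 6.35, 7.84 and 7.7. Pou5f1 read 6.44, 7.27, 6.66 and 6.45, without such a split.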

How the results depend on the processing

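Precision was limited by 2 arrays in 4 of the 5 groups. Of 145 recomputed member counts 109 stayed within 1.5 times the count reported, and of 1305 single gene changes 1161 kept their direction and side of the threshold, 74 lost the call, 33 gained it and 37 turned sign. Members passing in KD1 ESCs against scrambled numbered 1, against 2 with cyclic loess, array weights or no KD2 arrays and 0 with only the 4 arrays compared (3 at an unadjusted p under 0.05). In KD2 ESCs against scrambled they numbered 3, against 0 with array weights or only the arrays compared. For RA KD1 against RA scrambled they numbered 4, against 7 with array weights or only the arrays compared. For differentiation in KD1 they numbered 7, against 3 with RA KD1 replicates 1 and 2 alone, and for the interaction 1, against 2 with median centring, array weights, no KD2 arrays or only the arrays compared. In limma fits that left out 1 array at a time the counts ran from 0 to 2 in KD1 ESCs, 0 to 4 in KD2 ESCs, 2 to 6 for RA KD1 against RA scrambled, 4 to 7 for differentiation in KD1, 4 to 6 in scrambled cells, 0 to 2 for the interaction (where the 1 call was Tagln without ESC KD1 replicate 1 and Col1a2 without replicate 2) and stayed at 0 for KD2 against KD1; a lone array was assumed to vary like the other groups.

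The labels do not say whether arrays with the same replicate number belong together. Same-numbered deviations correlated at -0.18 to 0.24 between groups, highest for scrambled and KD1 ESCs. These values cannot show whether the samples were paired. With the replicate block limma called 0 members in KD1 ESCs, 0 in KD2 ESCs (4 at an unadjusted p under 0.05 in each) and 0 for the interaction (3 unadjusted), and 3 for differentiation in KD1, where RA KD1 replicates 3 and 4 add little since no other group has those numbers. With the block crossed for KD2, chosen after seeing the data, 0 members and 56 genes differed between KD2 and KD1.

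Signs turned mainly for changes near 0. With cyclic loess Col1a1 was 0.02 in KD2 against KD1 and -0.05 for differentiation in KD1, and Thy1 was -0.01 for RA KD1 against RA scrambled. With the replicate block or RA KD1 replicates 1 and 2 alone, Tagln was 0.05 and Thy1 -0.20 in RA KD1 against RA scrambled. Leaving out 1 array, Col1a1 ran from -1.13 to 0.00 in KD1 ESCs, from 0.00 to 1.18 for differentiation in scrambled cells, from -0.48 to 0.65 in KD1 cells and from -1.10 to 0.09 for the interaction. Col1a2 ran from -0.15 to 0.60 for differentiation in scrambled cells. Thy1 ran from -0.54 to 0.09 in KD1 ESCs, from -0.61 to 0.16 in KD2 ESCs, from -0.13 to 0.14 in RA KD1 against RA scrambled and from -0.08 to 0.55 for the interaction. Dcn ran from -0.96 to 0.60 for differentiation in KD1 and from -1.42 to 0.14 for the interaction, and Postn from -0.42 to 0.79 for the interaction. In KD2 against KD1 the ranges were -0.60 to 0.53 for Col1a1, -0.78 to 0.50 for Col1a2, -0.74 to 0.23 for Col3a1, -0.75 to 0.48 for Acta2, -0.07 to 0.76 for Tagln, -0.80 to 0.42 for Postn, -0.52 to 1.04 for Dcn and -0.38 to 0.38 for Thy1. The causes were not tested.

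Over all settings the genes called numbered 26 to 1148 in KD1 ESCs (301 as reported), 0 to 4463 in KD2 ESCs (1302), 0 to 4550 in KD2 against KD1 (351), 3341 to 7074 for differentiation in scrambled cells (5079), 4416 to 8611 in KD1 cells (6596), 1526 to 4988 for RA KD1 against RA scrambled (2942) and 447 to 2548 for the interaction (1024). Scaling moved the median change of all genes by less than 0.1.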
